A study of Mus musculus with 6 samples.

Results

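The transcripts described here are those of 38 genes that carry a fatty acid from the bloodstream to acetyl-CoA in the mouse heart: its release and uptake, activation, the carnitine shuttle into mitochondria, mitochondrial and peroxisomal beta-oxidation, and the enzymes that set its supply. They were taken from the pathway by gene symbol, with earlier results of these data known, and all 38 were found among the 24404 genes of the count table. All 38 also passed the filter on low counts, among 12487 genes that did. KO-TAC hearts came from miR-204-/- mice and WT-TAC hearts from wild-type mice (WT), with 3 libraries in each group. Both groups had transaortic constriction, an operation that narrows the aorta and makes the left ventricle pump against a higher pressure, and were collected 5 weeks later. Hearts without surgery were not analysed here, so each value compares genotypes under pressure load and says nothing of the load itself. The labels give no age, sex or strain, do not say how the miR-204 gene was removed or in which cells, and do not say whether a library is 1 animal, so each p reflects only how far these samples vary, which may be technical. The series asks what miR-204 does in the hypertrophy that pressure load brings about.

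An adult heart takes most of its energy from long-chain fatty acids. Lipoprotein lipase frees them from triglyceride in the capillaries, transporters and a binding protein bring them into the myocyte, an acyl-CoA synthetase activates them, and carnitine carries them across the mitochondrial membranes. Inside, each turn of beta-oxidation shortens the chain through a dehydrogenase, a hydratase, a second dehydrogenase and a thiolase, and hands electrons to the respiratory chain. Hearts under lasting pressure load are known for lower expression of these enzymes and a shift towards glucose, and the nuclear receptor PPAR-alpha, which fatty acids activate, is known for raising many of them.

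The groups are labelled by their miR-204 genotype, so the sequence of this microRNA and the places in these transcripts that could pair with its seed are shown first. A microRNA lowers a target mainly by pairing of its bases 2 to 8, the seed, with the 3' untranslated region (3' UTR) of a messenger RNA. Mature miR-204-5p, from chr19:22750610-22750631 on the plus strand (RefSeq, GRCm38.p6), is printed with its seed in capitals.

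miR-204-5p: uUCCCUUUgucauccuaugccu

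The match to this seed, AAAGGGA, was searched on the transcript strand of the longest annotated 3' UTR of each gene (GENCODE M21, GRCm38), and each occurrence among the 38 genes is printed with the match in capitals.

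Cpt1a, chr19:3384088-3384116, plus strand: tcctaatggatAAAGGGAtttaaatgctg
Crat, chr2:30402100-30402128, minus strand: tctttgtagccAAAGGGAcatctgaggcc
Crat, chr2:30401940-30401968, minus strand: aggtgatcaatAAAGGGAagaagtgctgg
Crat, chr2:30400614-30400642, minus strand: tttggggggctAAAGGGAacaaaaatatc
Acads, chr5:115110750-115110778, minus strand: ggtcagaccagAAAGGGActtgcctttca
Ucp3, chr7:100486189-100486217, plus strand: ttccatctgcaAAAGGGAgggcaaagcac

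The match stood in 4 of the 38 genes (10.5%), against 1989 of 11669 tested genes with an annotated 3' UTR (17%). The 3' UTRs of the 38 were short, with a median of 625.5 bases against 1253 over those tested genes. Crat, a carnitine acetyltransferase that buffers acetyl-CoA, held 3 matches, 2 of them followed by an A, which makes a longer 8mer match. Its log2 fold change, KO-TAC over WT-TAC, was 0.036 ± 0.23 (SE). Cpt1a, a form of the enzyme that commits acyl-CoA to the shuttle, held 1 match and had −0.085 ± 0.24. Acads, the short-chain acyl-CoA dehydrogenase, held 1 match and had 0.36 ± 0.19, and Ucp3, an uncoupling protein of the inner mitochondrial membrane, held 1 and had 0.46 ± 1.11. The median log2 fold change was 0.20 over these 4 genes and 0.21 over the other 34. A match is a description of the sequence and not evidence of a working site.

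The row of Mir204 itself held 0 counts in each of the 6 libraries, so it does not check the genotype. Trpm3, the gene in which it lies, had 39 to 78 counts in KO-TAC and 44 to 64 in WT-TAC, with a log2 fold change of 0.023 ± 0.37. Libraries held 6609315 to 8494415 counts in KO-TAC and 6411538 to 8571737 in WT-TAC. Levels are given as CPM, the count per 1000000 counts, after TMM scaling of library sizes, which compares 1 gene across libraries. Cardiomyocyte markers, 10 genes such as Myh6 and Tnnt2, summed to 132976 to 206971 CPM in KO-TAC and 155618 to 167688 in WT-TAC, as heart tissue would give, and 6 of the 10 were higher and 4 lower in KO-TAC. Before any result, 2 libraries need naming. In KO-TAC replicate 3, 29 of the 38 genes had their highest level of the 6 libraries, and in WT-TAC replicate 1, 31 had their lowest. In the deposited table, KO-TAC replicate 3 stands under the sample number of WT-TAC replicate 3. It was assigned to KO-TAC by the index that follows that number, found in the labels of KO-TAC replicate 3 alone, and whether it is that library is not settled. Of all 15 pairs of libraries, KO-TAC replicate 3 and WT-TAC replicate 3 had the most similar counts, with a median chi-square per gene of 3.18, against 4.04 to 7.74 for the other pairs and 0.455 for sampling noise alone. Its own values against KO-TAC replicates 1 and 2 were 6.53 and 6.80. Cacna1h, the 1 gene called lower in KO-TAC, stood in it at 5.91 CPM. The other KO-TAC libraries had 1.90 and 5.59 CPM, and WT-TAC had 27.9 to 56.1 CPM. Since the call came from a fit that took this library as KO-TAC, the value is no independent check of the assignment. Every direction given below rests on this assignment.

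**Figure D1:**
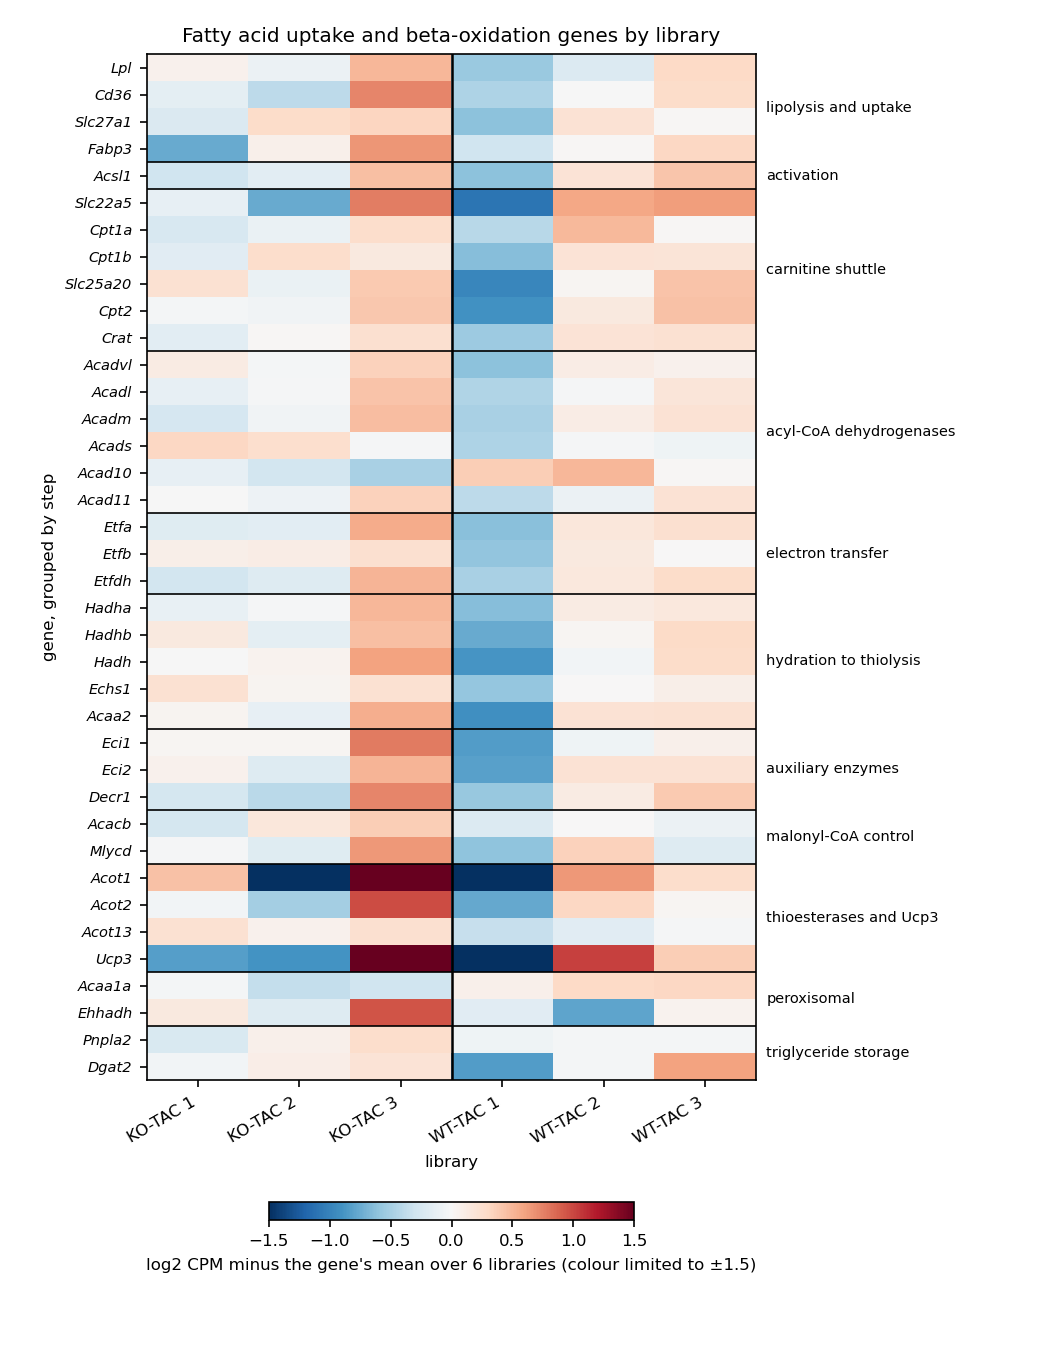
Level of each of the 38 genes in each library, as log2 CPM minus the mean of that gene over the 6 libraries, with rows grouped by step and KO-TAC columns left of WT-TAC columns. Red fills the column of KO-TAC replicate 3 and blue that of WT-TAC replicate 1, while the other 4 columns are paler.

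None of the 38 genes passed the test between genotypes. By the quasi-likelihood test of edgeR, with p-values adjusted over all 12487 tested genes after Benjamini and Hochberg, 0 of 38 were higher and 0 lower at an adjusted p under 0.05, where 0.016% of all tested genes were called higher in KO-TAC and 0.00801% lower. At an unadjusted p under 0.05 there were also 0 in either direction, against 1.36% of all tested genes higher and 1.57% lower. DESeq2 and limma-voom called 0 as well. Each of the 38 had an adjusted p of 0.999. For 31 of them the 95% interval of the fold change, from the same test, lay between 0.5 and 2. The 7 with wider limits were Slc22a5, Acad10, Eci1, Acot1, Acot2, Ucp3 and Ehhadh, so a 2-fold difference in at least 1 direction lay within their intervals.

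Most of the genes nevertheless leaned the same way. The log2 fold change was above 0 for 33 of 38 genes, against 50.2% of all tested genes, with a median of 0.21, against 0.0012 over all tested genes. It ran from −0.63 for Acad10 to 1.56 for Acot1, and the median SE was 0.27. Genes of 1 pathway share the same 6 libraries and move together across them, so this count is a description and not a test. In 2 genes, Acads and Acot13, every KO-TAC library lay above every WT-TAC library (4.26% of all tested genes did so, and under 2 other scalings Acads did not), and in 2, Acad10 and Acaa1a, every KO-TAC library lay below (3.72% of all).

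The lean rested on the 2 libraries named above. Relative to the mean of each gene over the 6 libraries, the median of the 38 genes stood at −0.038, −0.081 and 0.45 (log2) in KO-TAC replicates 1, 2 and 3, and at −0.60, 0.12 and 0.22 in WT-TAC replicates 1, 2 and 3. Over all tested genes the same median lay between −0.0053 and 0.031 in each library. KO-TAC replicates 1 and 2 thus stood below WT-TAC replicates 2 and 3. Summed, the 38 genes made up 1.74%, 1.72% and 2.51% of all counts in KO-TAC and 1.27%, 1.86% and 2.19% in WT-TAC. Without KO-TAC replicate 3, 19 of 38 genes were higher and the median log2 fold change was −0.0018. Without WT-TAC replicate 1, 21 were higher and the median was 0.0039. With any of the other 4 libraries left out, 35 or 36 were higher and the median was 0.26 to 0.35.

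**Figure D2:**
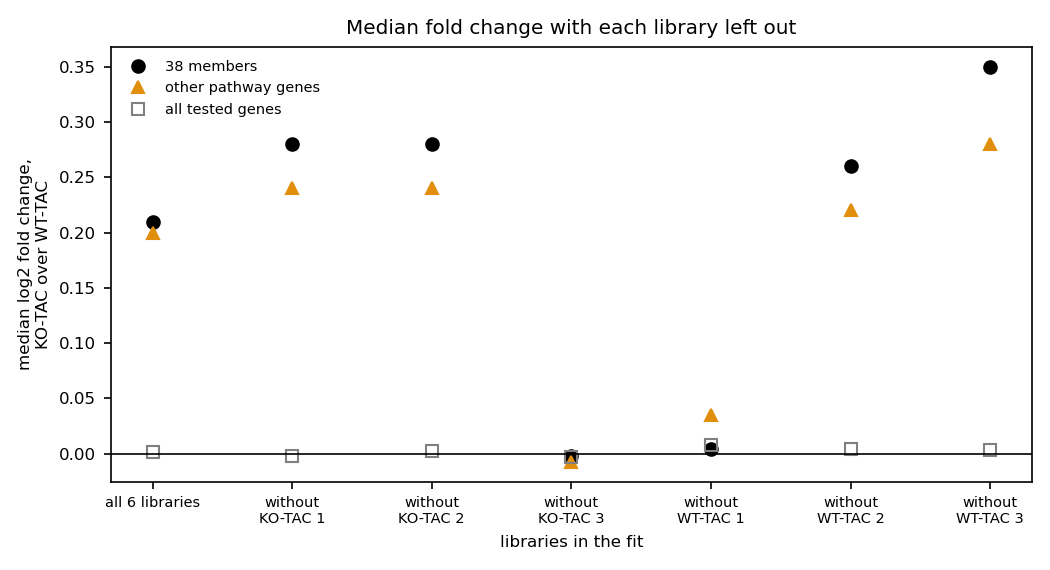
Median log2 fold change (KO-TAC over WT-TAC) of the 38 genes (circles), of 63 other tested genes of the pathway (triangles) and of all tested genes (squares), fitted with all 6 libraries and with each library left out. Circles and triangles lie between 0.20 and 0.35 except without KO-TAC replicate 3 or WT-TAC replicate 1, where they lie between −0.0074 and 0.035.

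Other transcripts differed between the same libraries. Nppa, the atrial natriuretic peptide gene that myocytes raise under load, stood at 6603, 5033 and 311 CPM in KO-TAC replicates 1, 2 and 3, against 7904, 2444 and 2668 CPM in WT-TAC replicates 1, 2 and 3. Nppa was picked out after its values were seen. It was lowest in the library highest in fatty acid genes and highest in the one lowest in them. So was Ankrd1, at 2138 CPM in KO-TAC replicate 3 and 5143 CPM in WT-TAC replicate 1. Nppb and Acta1 were also lowest in KO-TAC replicate 3, at 129 CPM for Nppb and 1685 CPM for Acta1. Their highest libraries were KO-TAC replicate 1 for Nppb, at 1492 CPM, and KO-TAC replicate 2 for Acta1, at 4314 CPM. Myh7 was lowest in WT-TAC replicate 3, at 2379 CPM, and highest in KO-TAC replicate 2, at 14269 CPM. Summed over 5 load-responsive genes (Nppa, Nppb, Myh7, Acta1 and Ankrd1), levels were 20041, 29287 and 10842 CPM in KO-TAC and 23316, 14048 and 9356 in WT-TAC, highest in KO-TAC replicate 2 and lowest in WT-TAC replicate 3. Fibroblast markers, 7 genes of matrix-forming cells, summed to 2780, 1899 and 1093 CPM in KO-TAC and 3043, 1756 and 1328 in WT-TAC, and 4 of them had a log2 fold change above 0 and 3 below. Smooth muscle markers had a log2 fold change below 0 for 5 of 5 genes, with sums of 66.8 to 183 CPM in KO-TAC and 205 to 270 in WT-TAC. Endothelial markers, of the cells where Lpl acts and Cd36 is also expressed, summed to 853 to 1166 CPM in KO-TAC and 727 to 922 in WT-TAC, and 6 of 7 were above 0. Macrophage markers summed to 144 to 253 CPM in KO-TAC and 168 to 207 in WT-TAC, with 3 of 6 above 0. No gene of these lists was called. The part of load, cell makeup or RNA quality in the fatty acid genes was not tested. In whole tissue, fewer cells of a type and less RNA per cell cannot be told apart.

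Members differed widely in level when set against their length. Here levels between genes are CPM per kilobase of annotated exon, with the exons of all annotated transcripts of a gene joined. A gene whose main transcript is shorter than that length is set too low. Fabp3, the heart fatty acid binding protein, was the highest at 3653 ± 1672 in KO-TAC and 3465 ± 728 in WT-TAC (SD, n = 3 each). Acadl, the long-chain acyl-CoA dehydrogenase, followed at 653 ± 136 in KO-TAC and 574 ± 123 in WT-TAC, and Lpl, lipoprotein lipase, at 514 ± 111 in KO-TAC and 419 ± 127 in WT-TAC. On this scale these last 2 did not differ beyond their spread, but their order rests on the length used, 10478 bases for Lpl and 2005 for Acadl. In CPM Lpl was the higher, at 5382 against 1308 in KO-TAC and 4387 against 1151 in WT-TAC. Acot1, Acad10, Slc22a5, Cpt1b, Acaa1a, Ehhadh and Cpt1a all lay below 8 in both groups, the lowest being Acad10 in KO-TAC, at 0.595 ± 0.0815, and Acot1 in WT-TAC, at 0.37 ± 0.297.

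**Figure D3:**
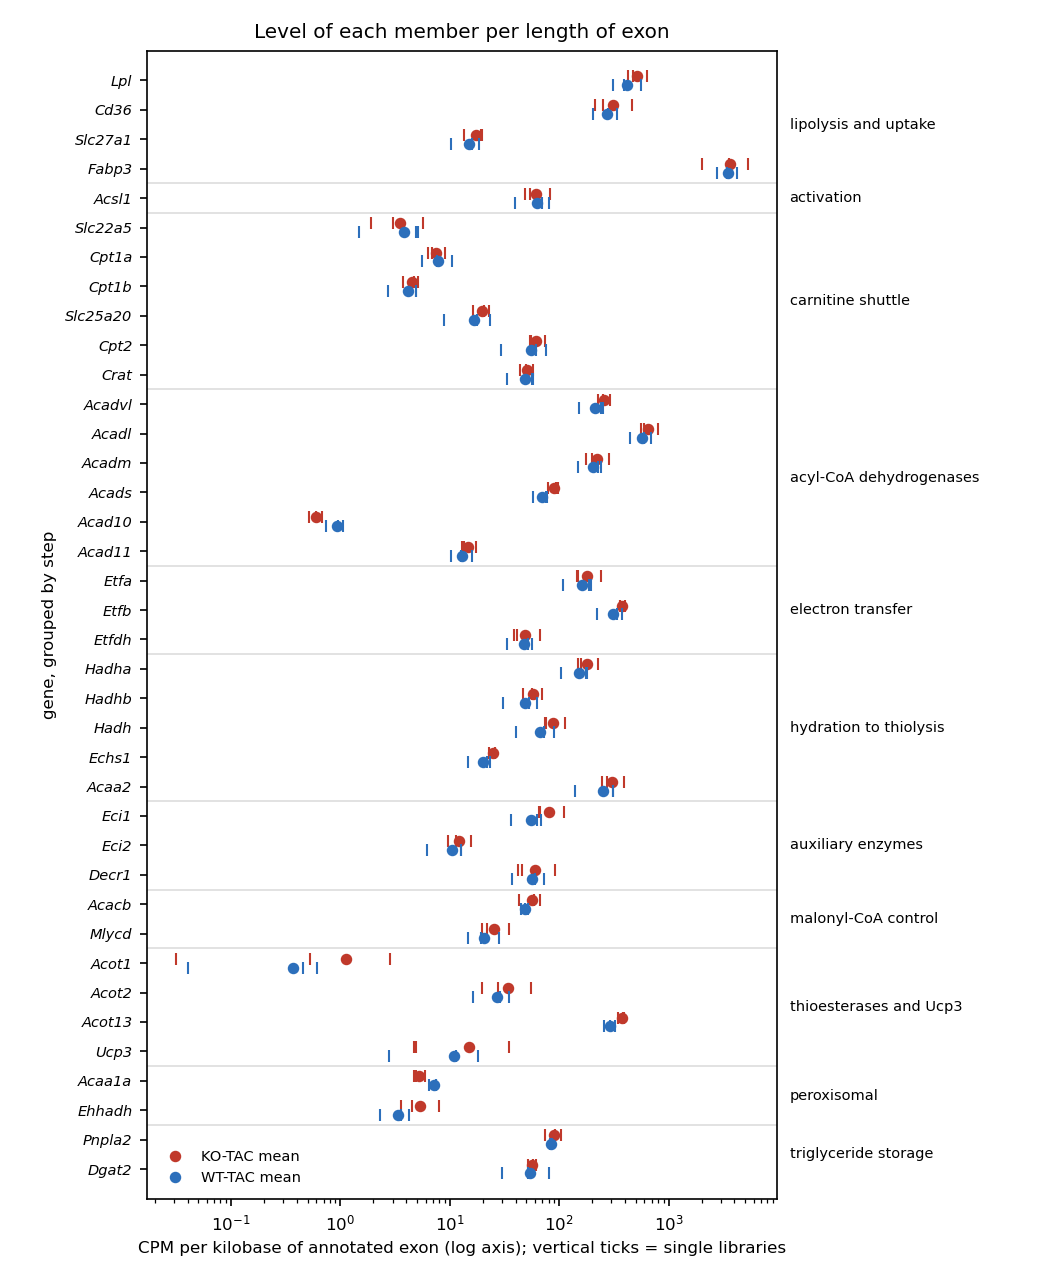
Level of each of the 38 genes per kilobase of annotated exon (CPM per kilobase, log axis), KO-TAC drawn above WT-TAC for each gene. Dots are means of 3 libraries and vertical ticks single libraries; Fabp3 lies farthest right and Acad10 and Acot1 farthest left, and the groups' ticks overlap for 34 genes.

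Some of these levels are limited by how reads were counted. Cpt1b encodes the muscle form of carnitine palmitoyltransferase 1, known as the main form in adult heart, and stood at 4.54 ± 0.694 CPM per kilobase in KO-TAC and 4.16 ± 1.26 in WT-TAC (SD, n = 3 each). Of its 3372 exon bases (chr15:89416405-89425863, GRCm38), 81.4% are also annotated to a readthrough transcript with the neighbouring gene Chkb, and that transcript's own row held 0 counts in each of the 6 libraries. Cpt1b counts numbered 87 to 142 in KO-TAC and 58 to 144 in WT-TAC. The level of Cpt1b is therefore uncertain, and no order between it and Cpt1a, the liver form, is read here. Fabp3 shares 29.2% of its 50-base stretches with the pseudogene Fabp3-ps1, Etfb 44.8% mainly with the locus Gm45233, and Acot2 27.7% mainly with Acot1. Slc22a5 shares 26.3%, mainly with Slc22a21, and Hadhb 19.7%, mainly with the locus Gm13910. These stretches could be split between rows or left out of them.

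At uptake, Lpl frees fatty acids from circulating triglyceride and had 4964, 4487 and 6696 CPM in KO-TAC, against 3218, 4106 and 5836 CPM in WT-TAC. Its groups overlapped, with WT-TAC replicate 3 above 2 of the KO-TAC libraries, and the log2 fold change was 0.30 ± 0.27 (SE). Cd36, the main fatty acid translocase of the myocyte membrane, averaged 1106 ± 481 CPM in KO-TAC and 977 ± 243 in WT-TAC (SD, n = 3 each), with a log2 fold change of 0.18 ± 0.29. Without KO-TAC replicate 3, which had 1655 CPM, its log2 fold change was −0.23. Slc27a1, a transport protein with acyl-CoA synthetase activity, had 0.24 ± 0.23, and Fabp3 0.076 ± 0.31. Fabp3 spread more widely within KO-TAC than within WT-TAC, with 1658, 2952 and 4409 CPM in KO-TAC and 2269, 2820 and 3466 CPM in WT-TAC.

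Acsl1, the main acyl-CoA synthetase of the heart, showed no lean at all. It had 512, 562 and 858 CPM in KO-TAC and 412, 726 and 838 CPM in WT-TAC, a log2 fold change of −0.032 ± 0.28. Its 95% interval allowed a fold of 0.646 to 1.48.

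The carnitine shuttle stood near no difference, with a median log2 fold change of 0.079 over 6 genes, 4 of them above 0. Crat, the highest of them in CPM, had 236, 267 and 311 CPM in KO-TAC and 180, 304 and 309 CPM in WT-TAC. Cpt1a had 48.1, 53.0 and 68.7 CPM in KO-TAC and 42.5, 79.7 and 57.7 CPM in WT-TAC, so its highest value was in WT-TAC. Of the rest, Slc25a20, the carnitine-acylcarnitine exchanger of the inner membrane, had the highest log2 fold change, 0.25 ± 0.30, and Cpt2, which returns acyl-carnitine to acyl-CoA in the matrix, had 0.12 ± 0.29. Cpt1b had 0.12 ± 0.31, and Slc22a5, the carnitine importer of the cell membrane, had −0.14 ± 0.49. Without WT-TAC replicate 1, 0 of the 6 were above 0, with a median of −0.18.

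Among acyl-CoA dehydrogenases, which open each turn of beta-oxidation and are named for chain length, 5 of 6 had a log2 fold change above 0. Acadl had 1111, 1194 and 1620 CPM in KO-TAC and 887, 1190 and 1375 CPM in WT-TAC, with 0.18 ± 0.23. Its groups overlapped across most of their range. Acads was 1 of the 4 genes whose groups did not overlap, with 222, 214 and 178 CPM in KO-TAC and 130, 176 and 171 CPM in WT-TAC. The gap between the groups was narrow, and they overlapped under upper-quartile scaling and by library size alone, the lowest KO-TAC library being KO-TAC replicate 3, the one that was highest for most of the pathway. Its log2 fold change of 0.36 ± 0.19 had an unadjusted p of 0.0778 and an adjusted p of 0.999 in edgeR, and was 0.23 to 0.45 with 1 library left out. Acadvl, for very long chains, had 0.27 ± 0.23, Acadm, for medium chains, 0.11 ± 0.25, and Acad11 0.17 ± 0.20. Acad10 went the other way, at 3.61 ± 0.495 CPM in KO-TAC and 5.59 ± 0.975 in WT-TAC (SD, n = 3 each) and −0.63 ± 0.46 on the log2 scale. It shares 17.1% of its 50-base stretches with other genes, mainly its neighbour in sequence Acad12. Of Acadvl's exon bases, 42.9% overlap Dvl2 on the opposite strand, whose row held 46 to 98 counts in KO-TAC and 42 to 59 in WT-TAC.

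The electron transfer flavoprotein takes electrons from these dehydrogenases to the respiratory chain, and its 3 genes had log2 fold changes of 0.26 ± 0.21 for the subunit Etfb, 0.14 ± 0.26 for the subunit Etfa and 0.042 ± 0.26 for its oxidoreductase Etfdh. Etfb, the highest in CPM, had 417, 422 and 464 CPM in KO-TAC and 260, 434 and 395 CPM in WT-TAC. Without WT-TAC replicate 1 its log2 fold change was 0.065, since the other 2 WT-TAC libraries lay close to KO-TAC.

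The later steps of the spiral were above 0 in 5 of 5 genes, with log2 fold changes within a narrow band of 0.22 to 0.38. Hadha and Hadhb encode the 2 subunits of the trifunctional protein, which carries out the last 3 reactions on long chains. They lie head to head on chromosome 5, 0.086 kb apart on opposite strands. Hadha had 1299, 1388 and 1978 CPM in KO-TAC and 902, 1532 and 1566 CPM in WT-TAC, so 2 of 3 KO-TAC libraries lay below 2 of 3 WT-TAC libraries. Its log2 fold change was 0.22 ± 0.26 and that of Hadhb 0.25 ± 0.26, and without WT-TAC replicate 1 they were 0.0039 for Hadha and 0.0013 for Hadhb. Echs1, the short-chain enoyl-CoA hydratase, had 214, 187 and 214 CPM in KO-TAC and 122, 182 and 193 CPM in WT-TAC, a log2 fold change of 0.30 ± 0.20 with an unadjusted p of 0.159 (adjusted p = 0.999, edgeR). Hadh, the hydroxyacyl-CoA dehydrogenase for shorter chains, had 0.38 ± 0.28, and Acaa2, the mitochondrial thiolase, 0.25 ± 0.29.

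Unsaturated fatty acids need auxiliary enzymes. Eci1, an enoyl-CoA isomerase that moves their double bonds, had 140, 141 and 237 CPM in KO-TAC and 76.9, 132 and 145 CPM in WT-TAC. KO-TAC replicates 1 and 2 lay between WT-TAC replicates 2 and 3, so the groups overlapped. The log2 fold change of 0.55 ± 0.27 was among the larger ones, with an unadjusted p of 0.0603 and an adjusted p of 0.999 in edgeR, and it was 0.26 without KO-TAC replicate 3. Eci1 lies at chr17:24426641-24439348 (GRCm38), 0.935 Mb from Cacna1h, a calcium channel gene, which had 1.90, 5.59 and 5.91 CPM in KO-TAC and 42.6, 56.1 and 27.9 CPM in WT-TAC, a log2 fold change of −3.23 ± 0.40 with an adjusted p of 0.00865 (edgeR). Whether the 2 genes share a cause was not tested. Eci2, a related isomerase, had 0.21 ± 0.28. Decr1, the dienoyl-CoA reductase, had 179, 163 and 357 CPM in KO-TAC and 145, 234 and 282 CPM in WT-TAC, with 0.078 ± 0.32.

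**Figure D4:**
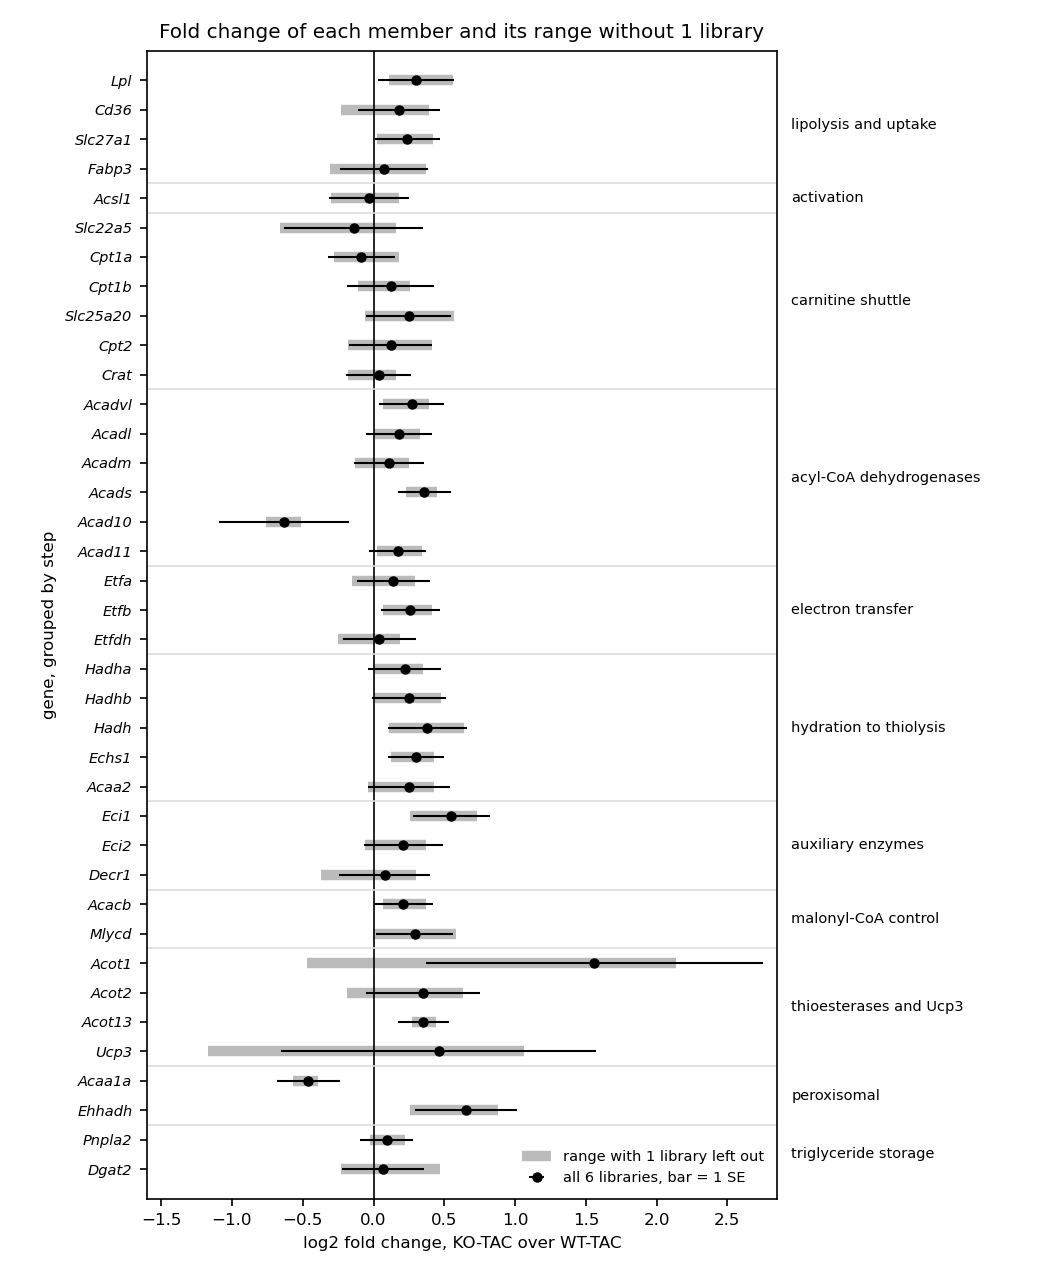
Log2 fold change of each of the 38 genes (KO-TAC over WT-TAC) from the fit with all 6 libraries (black dot, bar of 1 SE), with the range over the 6 fits that each leave out 1 library (grey). Grey bars cross 0 for 21 genes and stay on their side for 17, among them Acads, Acot13, Eci1 and Ehhadh above 0 and Acaa1a and Acad10 below.

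Malonyl-CoA blocks carnitine palmitoyltransferase 1, and its level is set by Acacb, the acetyl-CoA carboxylase that makes it at the mitochondrion, and Mlycd, the decarboxylase that removes it. Acacb had 416, 562 and 644 CPM in KO-TAC and 431, 501 and 471 CPM in WT-TAC, a log2 fold change of 0.21 ± 0.21. The KO-TAC libraries bracketed those of WT-TAC. Mlycd had 0.29 ± 0.27, so the values for the maker and the remover of malonyl-CoA were both above 0, each by less than 2 SE.

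Thioesterases, which free fatty acids from CoA, held both the steadiest and the most variable members. Acot13, a mitochondrial thioesterase, had 285, 255 and 288 CPM in KO-TAC and 192, 216 and 241 CPM in WT-TAC. Its groups did not overlap, the log2 fold change was 0.35 ± 0.18 with an unadjusted p of 0.0727 (adjusted p = 0.999, edgeR), and with 1 library left out it was 0.27 to 0.44. Ucp3, in contrast, had 15.5, 14.7 and 110 CPM in KO-TAC and 8.65, 56.6 and 35.9 CPM in WT-TAC. It was higher in KO-TAC replicate 3 than in any other library, and the other 2 KO-TAC libraries lay below 2 of the WT-TAC libraries. Its log2 fold change was 0.46 ± 1.11, and −1.17 without that library. Acot1, a cytosolic thioesterase that PPAR-alpha is known to raise, had 14, 1 and 75 counts in KO-TAC and 1, 21 and 13 counts in WT-TAC. Acot2, its mitochondrial relative 15.6 kb away on chromosome 12, had 60.2, 43.3 and 122 CPM in KO-TAC and 36.0, 76.9 and 63.0 CPM in WT-TAC. The log2 fold changes were 1.56 ± 1.19 for Acot1 and 0.35 ± 0.40 for Acot2, and 0.40 ± 0.43 with the counts of the pair summed. In limma-voom Acot1 had 0.33 and Ucp3 0.044, and with the replicate number as a block Acot1 had 1.09 and Ucp3 0.21, none past the test. Without KO-TAC replicate 3 they were −0.47 for Acot1 and −0.19 for Acot2. Ucp3, Acot1 and Acot2, and above them Fabp3 and Cpt1a, were given by library after their values were seen, as was the single value of Cd36.

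**Figure D5:**
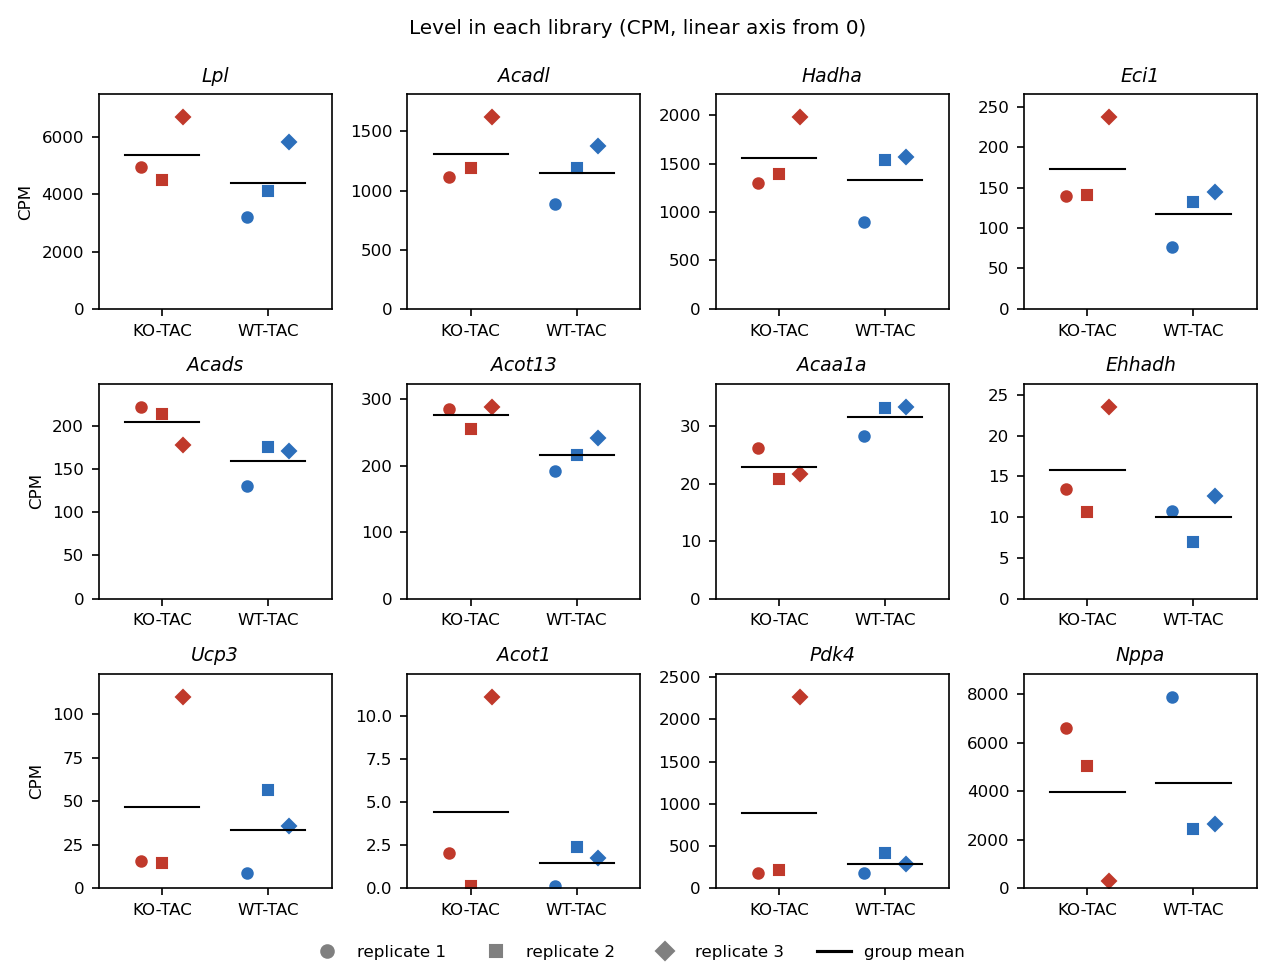
CPM in each library for 10 of the 38 genes, for Pdk4, a target of PPAR-alpha, and for Nppa, a load-responsive gene; each panel has a linear axis from 0, with KO-TAC left of WT-TAC and a line at the group mean. Ucp3, Acot1 and Pdk4 are highest in KO-TAC replicate 3, as are Lpl, Acadl, Hadha, Eci1, Acot13 and Ehhadh. In that library Nppa is at 311 CPM. Acads, Acot13 and Acaa1a are the panels whose groups do not overlap at this scaling.

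The peroxisome shortens very long chains with its own enzymes, and its 2 genes among the 38 had fold changes of opposite sign. Acaa1a, a peroxisomal thiolase, had 26.2, 20.8 and 21.7 CPM in KO-TAC and 28.2, 33.1 and 33.3 CPM in WT-TAC. Each KO-TAC library lay below each WT-TAC library, and neither KO-TAC replicate 3 nor WT-TAC replicate 1 was at the edge it held for most other genes. The log2 fold change was −0.46 ± 0.22, with the smallest unadjusted p of the 38, 0.0565, an adjusted p of 0.999 in edgeR and a range of −0.57 to −0.39 with 1 library left out. Acaa1b, its near copy, had 15, 30 and 17 counts in KO-TAC and 1, 14 and 5 counts in WT-TAC, the other way round, and 12.4% of the 50-base stretches of Acaa1a occur in Acaa1b. Reads of the pair may have been split between their rows, and the summed counts of Acaa1b are small beside those of Acaa1a. Ehhadh, the peroxisomal bifunctional enzyme, had 13.4, 10.6 and 23.5 CPM in KO-TAC and 10.7, 6.89 and 12.6 CPM in WT-TAC. Its groups overlapped, with a log2 fold change of 0.65 ± 0.36 and an unadjusted p of 0.0928 (adjusted p = 0.999, edgeR), and 0.26 without KO-TAC replicate 3.

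Pnpla2 starts the breakdown of stored triglyceride, and Dgat2 catalyses the last step of its synthesis. Pnpla2 had 223, 276 and 314 CPM in KO-TAC and 249, 256 and 257 CPM in WT-TAC, with a log2 fold change of 0.092 ± 0.19. WT-TAC was even for this gene, at 254 ± 4.04 CPM (SD, n = 3), and KO-TAC spread on both sides of it. Dgat2 had 0.067 ± 0.29, and its highest and lowest libraries were both WT-TAC, at 249 and 91.5 CPM. Fat cells also express Dgat2, and of the adipocyte markers Adipoq was 0 in 4 libraries, with 4.97 CPM in KO-TAC replicate 1 and 5.34 in WT-TAC replicate 3. In WT-TAC replicate 3, where Dgat2 was highest, Plin1, Cidec, Cfd and Pck1 were highest too, at 11.6, 11, 16.7 and 18.1 CPM. They had 0 to 0.157 CPM in WT-TAC replicate 1, where Dgat2 was lowest. KO-TAC replicate 1 was next highest for each of them, at 5.84 to 13.9 CPM, with the lowest Dgat2 of KO-TAC, 159 CPM. The 8 adipocyte markers summed to 231 to 401 CPM in KO-TAC and 234 to 319 in WT-TAC, most of it Fabp4, which capillary endothelium also expresses. Of 5 tested, 1 had a log2 fold change above 0, Fabp4 itself. Of brown fat markers, 1 of 2 tested did, with sums of 23.1 to 28.2 CPM in KO-TAC and 11.8 to 32.7 in WT-TAC. The part of fat tissue in these values was not tested.

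Of 67 other genes of the pathway listed by role, 66 were in the table and 63 were tested. Their log2 fold changes were above 0 for 46 (73%, against 50.2% of all tested genes) and below for 17, with 31 above without KO-TAC replicate 3 and 35 without WT-TAC replicate 1. Their median was 0.20, and 0 passed the test in either direction. At an unadjusted p under 0.05, 3 were higher and 0 lower, against 1.36% and 1.57% of all tested genes. These 3 were Mgll, which releases the last fatty acid of a glyceride, at 94.0 ± 4.74 CPM in KO-TAC and 61.8 ± 7.88 in WT-TAC (SD, n = 3 each) with a log2 fold change of 0.60 ± 0.18 (SE), Plin3, a lipid droplet coat protein, at 0.50 ± 0.20, and Acot9, a mitochondrial thioesterase, at 0.67 ± 0.29. Every KO-TAC library lay above every WT-TAC library in 4 of the 63, Mgll, Plin3, Acaa1b and Amacr (4.26% of all tested genes), and below in 1, Acsl3 (3.72% of all). Among those below 0 were Them4, at −0.70 ± 0.39, and Acsl3, at −0.49 ± 0.36. For each of these 5 the p adjusted over all tested genes was 0.999 (edgeR).

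A pair of PPAR-alpha targets outside the 38, picked out after their values were seen, differed widely between libraries. Pdk4, the kinase that shuts pyruvate dehydrogenase when fat is burnt, had 187, 218 and 2267 CPM in KO-TAC and 179, 415 and 285 CPM in WT-TAC. Angptl4, an inhibitor of lipoprotein lipase, had 5.11, 2.19 and 35.6 CPM in KO-TAC and 1.26, 7.35 and 5.62 CPM in WT-TAC. Both were highest in KO-TAC replicate 3 and lowest in WT-TAC replicate 1, and neither passed the test (adjusted p = 0.999, edgeR). The pattern was not particular to them. Of the 38 genes, 29 were highest in the first of these libraries and 31 lowest in the second, Ucp3 and Acot2 among both. The labels give neither feeding state nor time of day at collection.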

How the data were processed

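Per the labels' protocols, RNA of integrity number 8 or above went into plain or stranded TruSeq libraries sequenced in pairs. The kit of each sample is not stated, so it is not known whether reads of overlapping genes on opposite strands were told apart. The authors deposited raw read counts per gene symbol, not normalized. Tools listed in the submitters' processing notes are Subread, edgeR, FastQC and HISAT2 2.1.0, and the notes list mm10 and GRCm38 as builds, without saying what each was used for. The members and lists were chosen with earlier results of these data known.

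The test was that of edgeR 4.0.16, run in R 4.3.3: filterByExpr by genotype (minimum count 10), TMM scaling, a robust quasi-likelihood fit of KO-TAC against WT-TAC without covariate, and Benjamini-Hochberg adjustment over all 12487 tested genes, at 0.05. The SE was taken as the size of the log2 fold change divided by the root of F, and 95% intervals use the t quantile of the same test. Deviations use log2 CPM with a prior count of 2. Exon lengths, overlaps, shared 50-base stretches and 3' UTRs come from GENCODE M21, with older symbols matched through RefSeq. In data simulated for this comparison over 12487 genes, the test recovered 32.8% of 195 2-fold changes and 87.3% of 197 4-fold changes. The main fit called 3 genes. With more changed genes the adjusted threshold is easier to pass, so recovery in these data may be lower than in the simulation. With a common biological coefficient of variation of 0.286, precision is limited by sample spread more than by depth for all but the lowest genes.

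Values of every library are given for the highest gene of each step, the 6 smallest p values and others as stated. Other settings tried were RLE scaling, upper-quartile scaling, library size alone, no filter and a stricter one, DESeq2 1.42.0, limma-voom (limma 3.58.1), the replicate number as a block, each library left out, and a threshold of 0.1.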

Additional observations from a re-analysis of the deposited data

How the results depend on the processing

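No alternative called any of the 38 genes at an adjusted p under 0.05 or under 0.1, or any other pathway gene. The count of genes above 0 was 32 or 33 (32 of 36 tested with the stricter filter) and the median log2 fold change at 0.18 to 0.21 under each scaling, filter and tool, and under the replicate block; with 1 library left out the count was 19 to 36 and the median −0.0018 to 0.35. Genes whose groups did not overlap numbered 3 under upper-quartile scaling and library size alone (without Acads) and with the stricter filter (without Acad10). With 1 library left out they numbered 4 to 9, where 15.6% to 22.5% of all tested genes did not overlap, against 7.98% with all 6 libraries. Those at an unadjusted p under 0.05 numbered 0 to 3 with 1 library left out (2.31% to 5.58% of all tested genes). They numbered 1 without a filter on low counts (3.79% of all) and 1 in limma-voom (3.01% of all). With the replicate number as a block this count was 4 (Hadh, Eci1, Acot13 and Ehhadh, all higher, none called). The share over all tested genes was 4.6% with the block, against 2.93% in the main fit. The labels do not say that a shared number marks a litter or day. Correlations of same-numbered deviations across genes were 0.13, 0.011 and 0.26 for replicates 1, 2 and 3. Between differently numbered samples of the 2 groups they were −0.22 to 0.15. These values cannot tell whether samples of the same number were paired. Fabp3 turned to −0.013 with the block and −0.012 in limma-voom; Acot1 was 0.33 and Ucp3 0.044 in limma-voom. With 1 library left out 17 genes kept their direction and 21 did not, with these ranges of log2 fold change: −0.23 to 0.39 for Cd36, −0.31 to 0.37 for Fabp3, −0.30 to 0.18 for Acsl1, −0.66 to 0.16 for Slc22a5, −0.28 to 0.18 for Cpt1a, −0.11 to 0.26 for Cpt1b, −0.061 to 0.57 for Slc25a20, −0.18 to 0.41 for Cpt2, −0.18 to 0.16 for Crat, −0.13 to 0.25 for Acadm, −0.15 to 0.29 for Etfa, −0.25 to 0.19 for Etfdh, −0.04 to 0.43 for Acaa2, −0.062 to 0.37 for Eci2, −0.37 to 0.30 for Decr1, −0.0053 to 0.58 for Mlycd, −0.47 to 2.14 for Acot1, −0.19 to 0.63 for Acot2, −1.17 to 1.06 for Ucp3, −0.027 to 0.22 for Pnpla2, −0.23 to 0.47 for Dgat2. The cause was not tested. At 3 libraries each, most 2-fold changes would be missed, since 32.8% of simulated ones were recovered, and 87.3% of 4-fold ones. Both shares may be too high for these data, since the simulation held more changed genes than were called here.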
